A study of Homo sapiens with 6 samples.

Results

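The ATP-binding cassette (ABC) transporter genes known for moving drugs and their conjugates out of cells, ABCB1, ABCB4, ABCC1, ABCC2, ABCC3, ABCC4, ABCC5, ABCC6 and ABCG2, were followed in Hep-G2 cells with and without knockdown of CLGN. The 9 genes were taken by name from a table of 58735 genes, and all 9 of them passed the expression filter that left 13074 genes for testing. RNA was sequenced from 6 Hep-G2 libraries, an established human liver cancer line, of which 3 carried the short hairpin sh-CLGN (labelled CLGN knock down) and 3 the control hairpin sh-NC (labelled WT, treated with the control hairpin). Hairpins were delivered by lentivirus, and transduced cells were selected with puromycin. The labels place all 6 libraries in the same batch, 0DAY, and name no drug. There was 1 hairpin per group, so CLGN loss cannot be told apart from other effects of that hairpin or of the transduced population. Nothing states that replicates came from separate cultures, so p-values measure only the spread between these libraries, which may be technical.

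ABC transporters use the energy of ATP to carry substrates across membranes. In liver cells some of them sit on the canalicular side and secrete into bile, namely ABCB1 (P-glycoprotein), ABCB4, ABCC2 (MRP2) and ABCG2 (BCRP). Others, such as ABCC1 (MRP1), ABCC3 (MRP3), ABCC4 (MRP4) and ABCC6, face the blood side. High levels of ABCB1, ABCC1 and ABCG2 are widely known from cultured tumour cells that withstand several unrelated drugs. Levels here are messenger RNA levels, and neither protein nor transport was measured.

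CLGN, which encodes the endoplasmic reticulum chaperone calmegin, checked the labels. It measured 24.1, 21.0 and 26.1 FPKM (fragments per kilobase of transcript, scaled to library size) in sh-NC and 9.48, 8.88 and 8.60 FPKM in sh-CLGN. The groups did not overlap, and the log2 fold change was -1.31 (adjusted p = 8.35e-06, limma). Fold changes here are differences of mean log2(FPKM + 1), which understate the change of low genes, and adjusted p-values come from limma over all 13074 genes.

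The libraries held 14955816 to 16244639 reads. Reads from mitochondrial genes made up 3.25% to 4.02% of the sh-NC libraries and 5.49% to 5.80% of the sh-CLGN libraries, and genes with at least 1 read numbered 23578 to 23793 and 26814 to 27006. All 10 hepatocyte markers were expressed, with a summed level of 7868 to 8132 FPKM in sh-NC and 8105 to 8697 FPKM in sh-CLGN. Of these 10, 4 rose, 5 fell and 1 did not pass, from TF (transferrin), with a log2 fold change of -1.62, to FGB (fibrinogen beta chain), with 0.72, and ALB (albumin) had -0.90 and AFP (alpha-fetoprotein) 0.50 (0.30 after GC correction). Of 10 fibroblast markers, 4 were tested and all 4 rose, with a summed level of 4.09 to 4.51 FPKM against 9.81 to 10.5 FPKM. LUM and COL3A1, at most 0.430 and 0.313 FPKM in sh-NC, passed the filter of 1 FPKM in 3 libraries through sh-CLGN alone. Their rise was thus fixed by the filter. A further 5 markers had at most 3 reads in every library, and POSTN and FAP were at 0 reads throughout. Of 8 cholangiocyte markers, 4 were tested, 1 rose and 3 fell, with sums of 188 to 202 FPKM against 140 to 149 FPKM. Of 6 blood and endothelial markers, 2 were tested and both fell, with sums of 4.50 to 5.15 FPKM against 3.02 to 3.21 FPKM. The fall of CD14, at most 0.647 FPKM in sh-CLGN, was fixed by the filter, which it passed through sh-NC alone. The other gene tested was PECAM1. The part of these shifts in the results below was not tested, and in bulk RNA fewer cells of a type and less RNA per cell cannot be told apart.

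Among the 9 transporter genes, 6 passed an adjusted p of 0.05, of which 4 rose (ABCG2, ABCC2, ABCB4 and ABCC5) and 2 fell (ABCC4 and ABCC1). Over all genes tested 65.8% passed, 26.7% as higher and 39% as lower, and the count of 6 of 9 is read against that. The count was 8 of 9 with quantile normalization, with scaling by read totals (7 higher and 1 lower) and after GC correction, where 63.0%, 64.1% and 67.5% of all genes passed. In 6 of the 9 genes the 3 sh-CLGN libraries lay wholly on one side of the 3 sh-NC libraries, against 70.2% of all genes tested. None of the 9 reached an absolute log2 fold change of 1 on log2(FPKM + 1) of the deposited values, at any p, while 6.28% of all genes tested passed both thresholds. With scaling to TPM, scaling by read totals or voom, 1 of the 9, ABCG2, did. The median log2 fold change of the 9 was 0.15 (0.11 to 0.31 over the alternatives). That of all genes tested was -0.08 (-0.09 to 0.08 over the alternatives, with the highest under scaling by read totals). ABCG2, ABCC2, ABCB4 and ABCC4 kept their direction and passed in each of 16 alternative settings, while the calls on the other 5 genes turned with the setting.

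**Figure D1:**
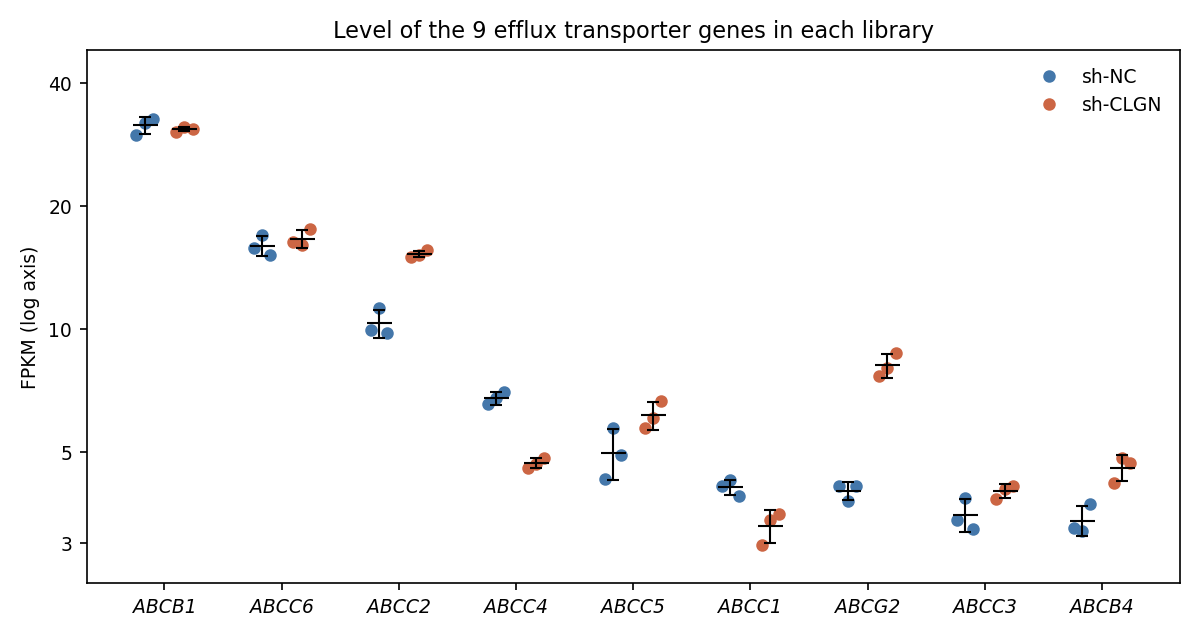
Level of each of the 9 transporter genes in each library, in FPKM on a log axis, ordered by the sh-NC mean, with sh-NC in blue and sh-CLGN in orange. Points are libraries and black bars are means with SD (n = 3). ABCG2 and ABCC2 lie higher and ABCC4 lower in all 3 sh-CLGN libraries, and ABCB1 stays near 31 FPKM in both groups.

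Promoter windows of the 2 genes that rose most and of the gene that fell most are printed. Each runs from 250 bases before to 50 bases after a RefSeq transcript start on GRCh38.p14 and is written in the direction of the gene. RefSeq windows were matched for 6 of the 9 genes, giving 12 windows. Capitals mark matches on either strand to 6 motifs, which are the antioxidant response element core TGACNNNGC, the dioxin response element core GCGTG, the E-box CACGTG, the GC box GGGCGG, the CCAAT box and the TATA box TATAAA.

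ABCG2, chr4:88158810-88159109, minus strand: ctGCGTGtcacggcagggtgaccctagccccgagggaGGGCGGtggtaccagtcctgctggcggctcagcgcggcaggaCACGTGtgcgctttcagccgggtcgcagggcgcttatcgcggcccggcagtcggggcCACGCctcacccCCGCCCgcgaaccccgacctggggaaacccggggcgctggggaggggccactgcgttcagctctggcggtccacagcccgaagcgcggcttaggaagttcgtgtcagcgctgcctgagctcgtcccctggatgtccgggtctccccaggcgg

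ABCC2, chr10:99782390-99782689, plus strand: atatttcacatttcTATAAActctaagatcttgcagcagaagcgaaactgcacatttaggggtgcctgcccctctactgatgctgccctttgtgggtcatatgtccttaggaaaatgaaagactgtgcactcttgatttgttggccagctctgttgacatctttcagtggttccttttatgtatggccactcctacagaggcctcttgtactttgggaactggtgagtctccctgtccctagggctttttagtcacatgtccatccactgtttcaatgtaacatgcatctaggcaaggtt

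ABCC4, chr13:95301402-95301701, minus strand: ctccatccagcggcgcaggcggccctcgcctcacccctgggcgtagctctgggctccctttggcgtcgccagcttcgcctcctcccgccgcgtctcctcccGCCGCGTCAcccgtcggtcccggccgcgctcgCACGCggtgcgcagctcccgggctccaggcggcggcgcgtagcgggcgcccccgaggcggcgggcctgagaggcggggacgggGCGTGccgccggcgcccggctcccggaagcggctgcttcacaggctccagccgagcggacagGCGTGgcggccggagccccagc

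The ABCG2 window is 1 of 5 that RefSeq gives for this gene, and which start the cells used was not measured. It had a GC content of 72.3%, with 2 dioxin response element cores, 1 E-box and 2 GC boxes. The ABCC2 window was poor in GC at 45.0% and held a single TATA box match near its 5′ end and no other match. The ABCC4 window reached 79.7% GC and held 1 antioxidant response element core and 3 dioxin response element cores. Of 35116 RefSeq windows of this length, 36.5% held a dioxin response element core, 13.3% an antioxidant response element core, 7.26% an E-box, 45.0% a GC box, 34.6% a CCAAT box and 11.5% a TATA box, and their median GC content was 58.7%. The other 4 ABCG2 windows had a GC content of 40.3%, 48.3%, 70.0% and 72.0%, so they too lay on both sides of that median. Their matches differed as well. In that order they held no match, 1 antioxidant response element core, the same kinds and numbers of matches as the printed window, and 2 dioxin response element cores. The matches given for ABCG2 thus depend on the window printed. A match describes letters only and is not evidence of binding.

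Of the canalicular transporters ABCG2, ABCC2 and ABCB4 rose, and ABCB1 did not pass. ABCG2 (ENSG00000118777, chr4:88090264-88231322, minus strand) encodes a half-transporter that dimerises to export topotecan, mitoxantrone, urate and sulfated conjugates. Its level was 4.14, 3.80 and 4.14 FPKM in sh-NC and 7.68, 8.02 and 8.76 FPKM in sh-CLGN, resting on 280 to 323 reads and 657 to 713 reads per library. Every sh-CLGN library lay above every sh-NC library, and the mean went from 4.03 ± 0.193 to 8.15 ± 0.551 FPKM (SD, n = 3), a ratio of 2.02. The log2 fold change was 0.86 (SE 0.07, 95% interval 0.71 to 1.02, adjusted p = 2.17e-05). It was 0.73 after correction for GC content, and passed 1 with 3 of the alternatives, which were scaling to TPM (1.09), scaling by read totals (1.03) and voom on recovered reads (1.01).

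ABCC2 (ENSG00000023839, chr10:99782640-99852594, plus strand) encodes the canalicular exporter of conjugated bilirubin and of glutathione and glucuronide conjugates. It measured 9.95, 11.3 and 9.78 FPKM in sh-NC and 15.0, 15.2 and 15.6 FPKM in sh-CLGN. The groups were well apart, and the sh-CLGN libraries differed from one another by less than the sh-NC libraries did. The mean rose from 10.3 ± 0.808 to 15.3 ± 0.283 FPKM (SD, n = 3), a ratio of 1.48, with a log2 fold change of 0.52 (SE 0.06, 95% interval 0.38 to 0.67, adjusted p = 0.000183).

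ABCB4 (ENSG00000005471, chr7:87401697-87480435, minus strand) encodes the floppase that moves phosphatidylcholine into bile. It was at 3.26, 3.22 and 3.74 FPKM in sh-NC and at 4.20, 4.83 and 4.71 FPKM in sh-CLGN. The groups did not overlap, although the highest sh-NC library came within 0.457 FPKM of the lowest sh-CLGN library. The ratio of means was 1.35 and the log2 fold change 0.34 (SE 0.08, adjusted p = 0.00507).

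ABCB1 (ENSG00000085563, chr7:87503633-87713323, minus strand), the gene of P-glycoprotein, was the most abundant of the 9 per length and did not pass. Its level was 29.8, 31.9 and 32.6 FPKM in sh-NC and 30.4, 31.2 and 30.9 FPKM in sh-CLGN. All 3 sh-CLGN libraries fell inside the sh-NC range, and the log2 fold change was -0.03 (95% interval -0.14 to 0.09, adjusted p = 0.656). The sign followed the scaling. The change was 0.25 with quantile normalization (adjusted p = 0.00517), 0.16 with scaling by read totals (adjusted p = 0.0274) and 0.10 with scaling to TPM, where it did not pass (adjusted p = 0.225), and -0.12 after GC correction (adjusted p = 0.0233). Reads on the gene numbered 2412, 2707 and 2928 in sh-NC against 2991, 2968 and 2896 in sh-CLGN. The deposited FPKM divide by a library size that was 0.933 to 0.953 of the summed reads for sh-NC, against 1.07 to 1.08 for sh-CLGN.

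ABCB1 and ABCB4 lie in a row on the same strand, 23198 bases apart. The ratio of ABCB4 to ABCB1 within a library was 0.109, 0.101 and 0.115 in sh-NC against 0.138, 0.155 and 0.153 in sh-CLGN, without overlap. Library scaling cancels in this ratio. The nearest tested genes outside the pair were SLC25A40 beside ABCB1, a mitochondrial carrier that rose by 0.50 on the log2 scale (0.12 after GC correction), and CROT beside ABCB4, a peroxisomal carnitine acyltransferase with a change of -0.03 that did not pass (-0.28 after GC correction).

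Of the 5 remaining transporters, all of the ABCC subfamily, ABCC4 changed most. ABCC4 (ENSG00000125257, chr13:95019829-95301475, minus strand) encodes an exporter of cyclic nucleotides, nucleotide analogues and, together with glutathione, bile acids. It measured 6.54, 6.77 and 7.01 FPKM in sh-NC and 4.59, 4.67 and 4.85 FPKM in sh-CLGN. Each sh-CLGN library was far below the lowest sh-NC library. The mean of 6.77 ± 0.236 FPKM in sh-NC became 4.70 ± 0.134 FPKM in sh-CLGN (SD, n = 3), a ratio of 0.694, with a log2 fold change of -0.45 (SE 0.06, 95% interval -0.58 to -0.32, adjusted p = 0.000245).

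ABCC1 (ENSG00000103222, chr16:15949577-16143074, plus strand) encodes the exporter of glutathione conjugates and leukotriene C4 also known as MRP1. Its level was 4.14, 4.27 and 3.92 FPKM in sh-NC and 2.96, 3.42 and 3.53 FPKM in sh-CLGN. The groups did not overlap, and the log2 fold change was -0.25 (SE 0.07, 95% interval -0.42 to -0.08, adjusted p = 0.0180). The call was lost after GC correction (-0.08, adjusted p = 0.289), with scaling to TPM (-0.18, adjusted p = 0.131) and by read totals (-0.10, adjusted p = 0.281), and without sh-NC replicate 2 (-0.23, adjusted p = 0.0548) or sh-CLGN replicate 1 (-0.19, adjusted p = 0.0651).

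ABCC5 (ENSG00000114770, chr3:183919934-184018015, minus strand) encodes an exporter of cyclic GMP and nucleotide analogues. It was at 4.30, 5.72 and 4.91 FPKM in sh-NC and at 5.74, 6.05 and 6.66 FPKM in sh-CLGN. The groups barely separated, since sh-NC replicate 2 came within 0.0222 FPKM of sh-CLGN replicate 1. The log2 fold change was 0.26 (SE 0.10, 95% interval 0.04 to 0.48, adjusted p = 0.0401). The call was lost without sh-NC replicate 1 (0.18, adjusted p = 0.121), sh-NC replicate 3 (0.26, adjusted p = 0.0784), sh-CLGN replicate 2 (0.27, adjusted p = 0.0803) or sh-CLGN replicate 3 (0.21, adjusted p = 0.126), and with no expression filter (adjusted p = 0.110).

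ABCC3 (ENSG00000108846, chr17:50634777-50692252, plus strand) encodes a blood-side exporter of bile acids and glucuronides. It measured 3.42, 3.87 and 3.25 FPKM in sh-NC and 3.85, 4.07 and 4.14 FPKM in sh-CLGN. The groups overlapped through sh-NC replicate 2, and the log2 fold change of 0.15 did not pass (95% interval -0.01 to 0.32, adjusted p = 0.0920). It passed as higher after GC correction (0.33, adjusted p = 0.00171), with scaling to TPM (0.30, adjusted p = 0.0206) and by read totals (0.31, adjusted p = 0.00561), with voom (0.20, adjusted p = 0.0445), and without sh-NC replicate 2 (0.21, adjusted p = 0.0367).

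ABCC6 (ENSG00000091262, chr16:16148928-16223522, minus strand), whose loss causes the mineralization disorder pseudoxanthoma elasticum, was second in level per length. It was at 15.7, 17.0 and 15.2 FPKM in sh-NC and at 16.3, 16.0 and 17.6 FPKM in sh-CLGN. The groups overlapped, and the log2 fold change was 0.05 (95% interval -0.09 to 0.20, adjusted p = 0.454). It passed as higher after GC correction (0.24, adjusted p = 0.00166), with quantile normalization (0.27, adjusted p = 0.00411), with scaling by read totals (0.24, adjusted p = 0.00741) and to TPM (0.18, adjusted p = 0.0484). The values of this gene are uncertain because 15.6% of the 50-base stretches of its transcripts also occur in the pseudogene ABCC6P1 and 8.92% in ABCC6P2. ABCC6P1 (chr16:18571162-18598328) rose from 13.0 ± 0.452 to 16.8 ± 0.691 FPKM (SD, n = 3), a log2 fold change of 0.34 (adjusted p = 0.000759). ABCC6P2 (chr16:14820792-14824702) had a change of -0.09 that did not pass (adjusted p = 0.378). Between 0% and 2.02% of the stretches of each of the other 8 transporters occurred in any other gene.

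**Figure D2:**
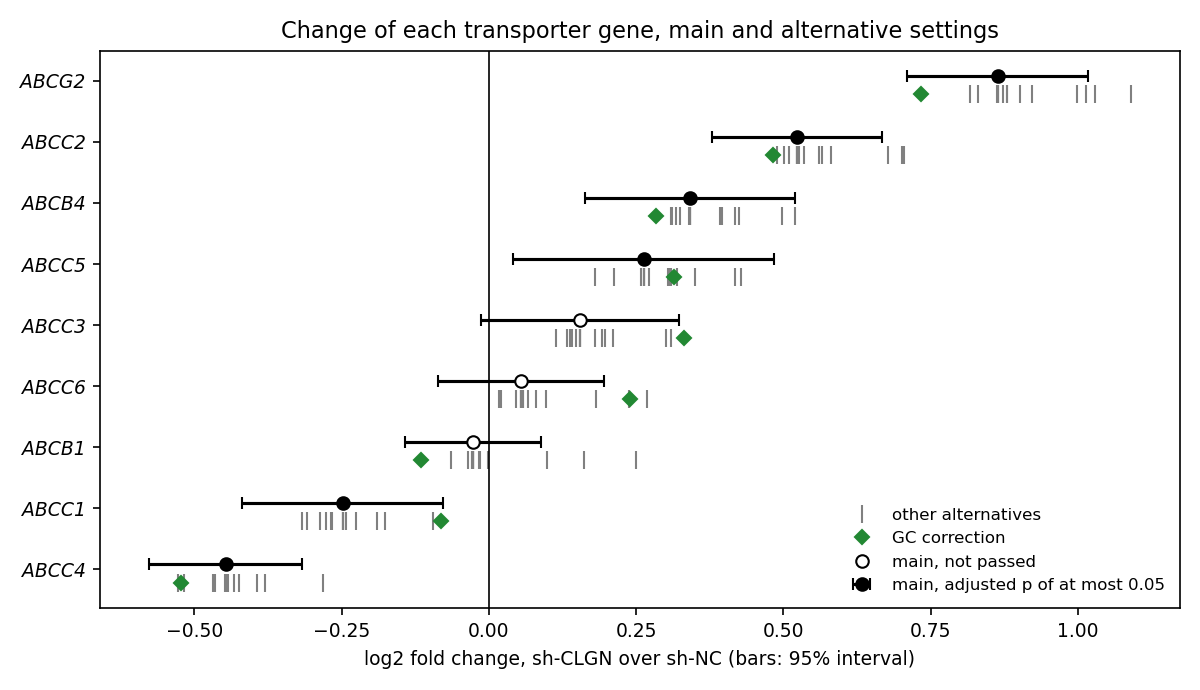
Log2 fold change of each of the 9 transporter genes, sh-CLGN over sh-NC, on log2(FPKM + 1). Circles with bars are the main values with 95% intervals, filled where the adjusted p was at most 0.05, green diamonds are values after GC correction and grey ticks the other alternatives. ABCG2, ABCC2, ABCB4, ABCC5, ABCC3 and ABCC6 stay above 0 and ABCC4 and ABCC1 below 0 throughout. Only the ticks of ABCB1 fall on both sides.

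The 3 transporters with the GC-richest transcripts, ABCC6 (58.4%), ABCC3 (56.4%) and ABCC1 (55.4%), all moved upwards under the GC correction, to 0.24, 0.33 and -0.08. ABCG2, with the lowest GC content at 42.1%, moved downwards from 0.86 to 0.73. ABCC1 and ABCC6 are also tail to tail neighbours on opposite strands, 5854 bases apart. The ratio of ABCC6 to ABCC1 within a library was 3.80, 3.98 and 3.88 in sh-NC against 5.51, 4.68 and 4.97 in sh-CLGN, without overlap, and library scaling cancels in it.

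The make-up of the 9-gene pool changed together with these levels. The summed level was 81.3, 87.8 and 84.5 FPKM in sh-NC and 90.7, 93.5 and 96.7 FPKM in sh-CLGN. ABCB1 held the largest share in both groups, with 37.2% ± 1.19 (SD, n = 3) in sh-NC against 32.9% ± 0.847 (SD, n = 3) in sh-CLGN. ABCC6 followed with 18.9% and 17.8%, and ABCC2 with 12.2% and 16.3%. The share of ABCG2 went from 4.77% to 8.70% and that of ABCC4 from 8.02% to 5.02%.

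In order of level per length, ABCG2 moved from place 7 in sh-NC to place 4 in sh-CLGN, ABCC4 from 4 to 6 and ABCC1 from 6 to 9. Neighbours in this order overlapped in sh-NC from place 6 on, that is ABCC1 with ABCG2, ABCG2 with ABCC3 and ABCC3 with ABCB4. In sh-CLGN the one overlapping pair of neighbours was ABCC4 and ABCB4. The ratio of ABCG2 to ABCC4 was 0.632, 0.562 and 0.590 in sh-NC against 1.67, 1.72 and 1.81 in sh-CLGN, so the order of these genes was turned in all libraries. The ratio of ABCC4 to ABCC5 went from 1.38 ± 0.174 to 0.766 ± 0.0361 (SD, n = 3) and likewise crossed 1.

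**Figure D3:**
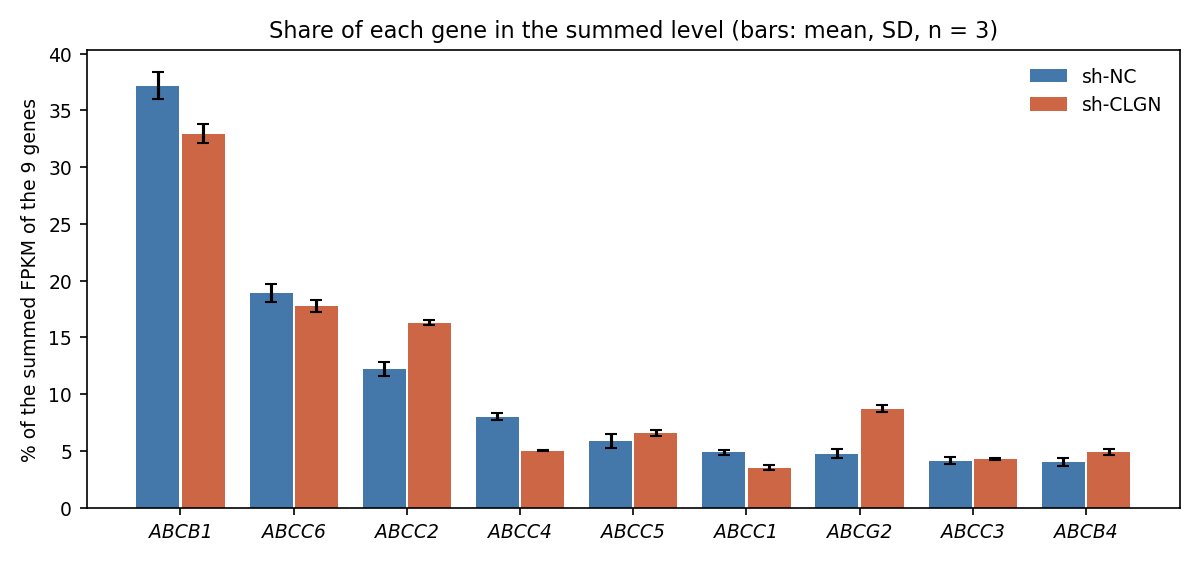
Share of each transporter gene in the summed FPKM of the 9 genes, in percent, as means with SD (n = 3) for sh-NC in blue and sh-CLGN in orange. ABCB1 has the tallest bars in both groups, the ABCG2 bar grows from 4.77% to 8.70% and the ABCC4 bar shrinks from 8.02% to 5.02%.

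Genes next to the transporters on the chromosome moved in various ways. Both neighbours of ABCG2 rose with it, namely PKD2, the polycystin calcium channel, by 0.72 and PPM1K, a mitochondrial phosphatase, by 0.40. PPM1K, at most 0.777 FPKM in sh-NC, passed the filter of 1 FPKM through sh-CLGN alone, so its rise was fixed by the filter. Both neighbours of ABCC2 went against it, with CUTC at -0.49 and DNMBP at -0.29, and both passed. PARL and EIF2B5 beside ABCC5 fell as well, with changes of -0.67 and -0.49. Beside ABCC4, DNAJC3-DT rose by 1.12 and GPR180 had a change of 0.08 that did not pass (-0.29 after GC correction). DNAJC3-DT, at most 0.933 FPKM in sh-NC, likewise passed the filter through sh-CLGN alone. Beside ABCC3, SPATA20 rose by 0.52 and ANKRD40 had a change of -0.15 that passed. NOMO3 beside ABCC6 fell (-0.67), and FOPNL beside ABCC1 did not pass (-0.11, and -0.36 after GC correction). Annotated genes that overlap a transporter had at most 17 reads in any library.

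The sh-CLGN hairpin was also looked for in the transporters, since a guide strand can act on partly matching transcripts. None of the 9 genes held the letters TACCACA or ATACCAC, which pair with guide positions 2 to 8 and 3 to 9 if the guide is the reverse complement of the stated target, in an annotated 3′ untranslated region. Either occurred in 14.8% of 10880 tested genes with such a region.

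The other ABC genes, which carry lipids, peptides and peroxisomal substrates or act in translation, moved in both directions. Of 39 such genes, 17 were expressed enough to be tested, and 4 rose and 5 fell, with a median log2 fold change of -0.02. Those that rose include ABCA5 and ABCG8, at most 0.580 and 0.493 FPKM in sh-NC. Both passed the filter of 1 FPKM through sh-CLGN alone, so their rise was fixed by the filter. TAP2, one of those that fell, at 0.964 to 1.18 FPKM in sh-CLGN, needed sh-NC libraries to pass it. Over all genes tested 65.8% passed, 26.7% as higher and 39% as lower, and this list and those below are read against these shares. Without sh-NC replicate 3, 14 of the 17 passed, and with GC correction 13 of them did. With no filter 13 of the other ABC genes passed, but these came from all of them with a read. In that setting 27.6% of 33474 genes passed. ABCD3, a peroxisomal importer of branched-chain and bile acid precursors, rose from 5.34 ± 0.708 to 21.2 ± 0.815 FPKM (SD, n = 3; log2 fold change 1.82), more than any of the 9 efflux genes. ABCA2 and ABCA5, both lipid transporters of the ABCA subfamily, had changes of -1.49 (-1.27 after GC correction) and 1.16 (0.78 after GC correction). ABCB11, the bile salt export pump, was not tested, with means of 0.0407 and 0.281 FPKM.

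Uptake carriers, which bring drugs and bile acids into the cell, were tested for 12 of 25 genes, of which 5 rose and 3 fell (median 0.11). SLC22A7, an organic anion carrier, rose from 0.532 ± 0.204 to 3.55 ± 0.441 FPKM (SD, n = 3; log2 fold change 1.58). At most 0.738 FPKM in sh-NC, it passed the filter of 1 FPKM through sh-CLGN alone, so its rise was fixed by the filter. SLC22A3, an organic cation carrier, rose by 0.99, SLC22A9 by 0.75 and SLCO1A2 by 0.68 (0.40 after GC correction). SLCO1A2, at 0.886 to 1.15 FPKM in sh-NC, also passed the filter only because of its sh-CLGN libraries. The hepatic carriers SLCO1B1, SLCO1B3 and SLC10A1 did not reach the filter, with means of 0.0433 to 1.07 FPKM.

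Of 8 exporters outside the ABC family, 6 were tested, 1 rose and 4 fell (median -0.36). SLC51B, a subunit of the blood-side bile acid exporter, had 79.3, 77.4 and 81.5 FPKM in sh-NC and 13.9, 14.0 and 15.7 FPKM in sh-CLGN. That is a log2 fold change of -2.37 (adjusted p = 3.56e-07), beyond any change among the 9 ABC efflux genes. Its partner SLC51A fell by 0.44, and MVP, the major vault protein, had a change of -0.42 that passed (-0.23 after GC correction). SLC47A1, which exports organic cations into bile, was the one that rose, from 6.96 ± 0.375 to 12.9 ± 0.661 FPKM (0.81).

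Of 28 regulators known to act directly or indirectly on ABC transporter genes, mostly transcription factors, all 28 were tested. Of these, 20 fell while 1, NR1I2, rose (median -0.34). Among all genes tested, 39% passed as lower and 26.7% as higher. Scaling shifted the split of the 28, to 16 lower and 4 higher with quantile normalization and to 13 lower and 2 higher with scaling by read totals. NR1I2, the pregnane X receptor that responds to drugs and bile acids, rose from 1.13 ± 0.208 to 2.61 ± 0.323 FPKM (SD, n = 3; log2 fold change 0.76). At 0.937 to 1.35 FPKM in sh-NC, it needed sh-CLGN libraries to pass the filter. NR1I3, one of the 20 that fell, at 0.767 to 1.05 FPKM in sh-CLGN, needed sh-NC libraries to pass it. AHR, the dioxin receptor whose element core was searched above, fell from 10.6 ± 0.505 to 4.17 ± 0.189 FPKM (-1.16), and ARNT, its partner, by 0.33. NFE2L2, the factor of the antioxidant response element, went from 35.0 ± 3.24 to 27.3 ± 0.831 FPKM (-0.34). EGR1, an immediate early factor, fell by 2.61, NR0B2, a repressor in bile acid sensing, by 1.33, and JUN by 0.99. HIF1A did not pass, at 47.2 ± 4.49 and 48.2 ± 1.19 FPKM, with a log2 fold change of 0.03 (-0.23 after GC correction).

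Of 12 genes for proteins that hold or move transporters at the membrane, 11 were tested, 4 rose and 2 fell (median 0.12). CAV1, the caveolar coat protein caveolin, rose from 4.54 ± 0.247 to 12.8 ± 0.0651 FPKM (SD, n = 3; log2 fold change 1.31). PIM1, a kinase that phosphorylates ABCG2, rose by 0.58 and STX3, a syntaxin of apical membranes, by 0.51. SLC9A3R1, a scaffold that binds the tails of ABCC2 and CFTR, went from 145 ± 15.4 to 99.7 ± 2.35 FPKM (-0.53, and -0.33 after GC correction).

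**Figure D4:**
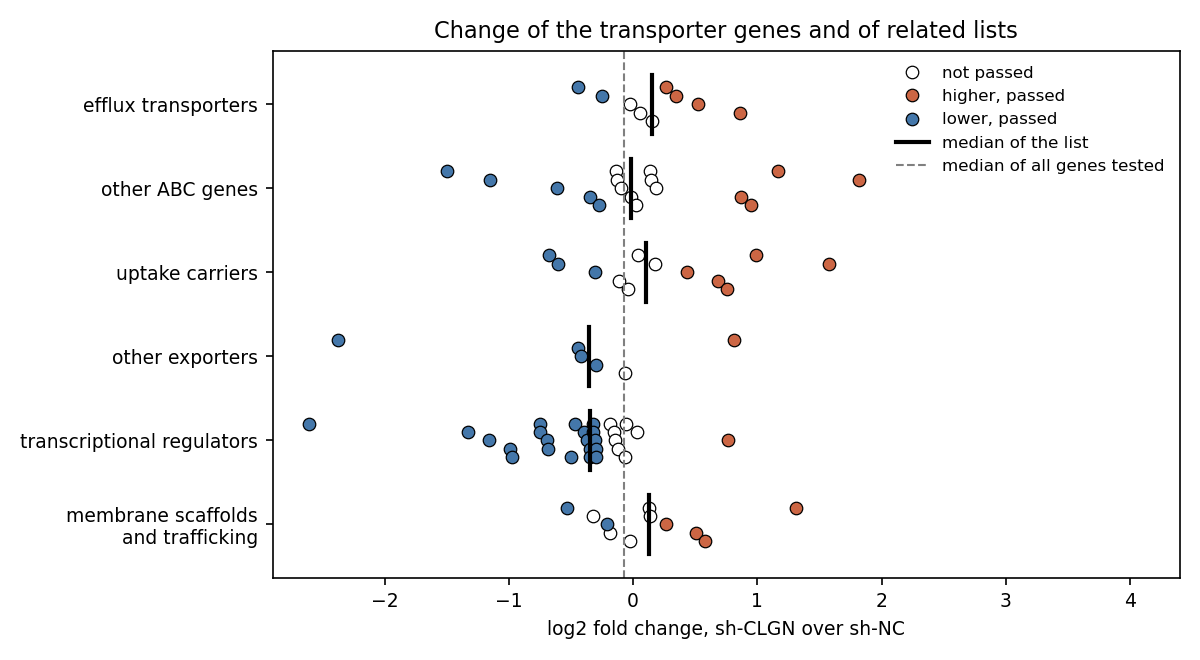
Log2 fold change of each tested gene, sh-CLGN over sh-NC, for the 9 efflux transporters and 5 related lists. Orange points rose and blue points fell at an adjusted p of at most 0.05, white points did not pass, black lines are list medians and the dashed line is the median of all genes tested (-0.08). The efflux transporters lie between -0.45 and 0.86, and SLC51B and EGR1 lie below -2.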

How the data were processed

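RNA of 3 sh-NC and 3 sh-CLGN Hep-G2 libraries was prepared with a NEBNext Ultra kit. The submitters' processing notes name HISAT2 2.0.5, featureCounts and GRCh38. The values deposited by the authors are FPKM, given beside each gene's length. Their scaling, strandedness and annotation are not given in the sources used here. All 58735 gene positions equalled GENCODE 29. Columns named KD were matched to the samples titled shCLGN. FPKM times length gave whole reads for 100% of values (tolerance 0.01 of a read). Counting error is that of these reads, without molecular identifiers.

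limma 3.58.1 in R 4.3.3 (eBayes, intensity trend, log2(FPKM + 1), two-sided, Benjamini-Hochberg) was run on the 13074 genes that reached 1 FPKM in 3 or more libraries, and tested on simulated data. Members and lists were chosen with earlier results of these data known. Genes named are the 9 members, CLGN, the nearest tested neighbours and up to 4 genes per list with the largest changes among passed genes with separated libraries. One gene that meets this rule is not reported here. ABCB11, ABCG8, TAP2, SLCO1B1, SLCO1B3, SLC10A1, NR1I2, NR1I3, NFE2L2, ARNT, HIF1A, the marker genes, ABCC6P1 and ABCC6P2 were named after their values were seen, as were the ratios. Alternatives are given in the closing section.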

Additional observations from a re-analysis of the deposited data

How the results depend on the processing

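The alternatives were a pseudocount of 0.1, no filter, median-ratio, TPM, quantile and read-total scaling, no intensity trend, voom on recovered reads, GC correction (a lowess trend on GC content, span 0.3, removed per library), a replicate block and leaving out each library. The number of transporters that passed as higher was 7 with scaling by read totals, and that as lower was 1 with scaling to TPM or by read totals. Both thresholds were passed by 1 gene, ABCG2, with scaling to TPM, by read totals and with voom. ABCB1 changed sign with quantile normalization (0.25), scaling by read totals (0.16) and scaling to TPM (0.10, not passed). Relative to the main setting, the median of all genes shifted by 0.11 with TPM, 0.16 with read totals and 0.06 with quantile normalization, and the share of called genes that were higher went from 40.7% to 52.2%, 59.2% and 48.6%. Leaving out 1 library gave 5 to 6 transporters that passed, 3 to 5 higher and 1 to 2 lower, and 8 to 14 other ABC genes. Same-numbered replicates did not deviate together (correlations of -0.02, -0.05 and -0.15), so the numbers were not taken as pairs. With the replicate block 6 transporters passed, 4 higher and 2 lower, and 9 other ABC genes. With no filter 5 transporters passed, and no transporter was below the filter, so the test planned for such genes was not needed. The cause of these shifts was not tested. The least covered transporter, ABCG2, had 280 reads in its lowest library, so depth left no transporter near the floor of 3 reads.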
